A study of Homo sapiens with 12 samples.

Results

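The 7 genes described here encode 4 proteins of the HUSH (human silencing hub) system, FAM208A, FAM208B, MPHOSPH8 and PPHLN1, and 3 MORC proteins, MORC2, MORC3 and MORC4. They were chosen by name, under their GENCODE 29 symbols, and make up 7 of the 58735 genes in the count tables. The RNA came from HAP1, a human cell line with a near-haploid genome that traces back to a chronic myelogenous leukemia, either wild type or with SETDB1 knocked out. SETDB1 is the histone H3 lysine 9 (H3K9) methyltransferase through which HUSH acts. Each genotype was represented by 3 libraries of a non-directional kit, which discards the strand of the RNA, and 3 of a directional kit, 12 libraries in all, and both genotypes share the HAP1 background. The labels do not say whether the knockout is a single clone. The titles call the replicates biological but name no separate cultures, so p-values measure only the spread between these libraries, which may be technical.

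HUSH is a complex of TASOR (gene symbol FAM208A), MPP8 (MPHOSPH8) and periphilin (PPHLN1) that silences newly integrated retroviruses, young LINE-1 (L1) retrotransposons and some genes inside H3K9-trimethylated chromatin. TASOR holds the complex together, MPP8 binds methylated H3K9 through its chromodomain, and periphilin binds RNA. TASOR2 (FAM208B) is a paralog of TASOR that can also join MPP8 and periphilin. MORC proteins are ATPases of the GHKL type that clamp DNA and compact chromatin. MORC2 is recruited by HUSH, MORC3 sits in PML nuclear bodies, and both MORC3 and MORC4 have a CW domain that reads methylated histone H3.

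The non-directional libraries held 8921959 to 10199215 gene counts and the directional libraries 532021 to 676691. The targeted gene, SETDB1, dropped from 60.0 ± 4.4 to 11.5 ± 0.64 counts per 1000000 gene counts (CPM; SD, n = 3 each) in the non-directional libraries, in the direction the labels give. The 50 tested genes nearest to it had a median log2 fold change of -0.49, with 42 of the 50 lower. In the directional libraries it had 12, 17 and 7 counts in wild-type and 6, 4 and 11 in knockout replicates, which overlap, and it did not pass (edgeR adjusted p = 0.257), so the labels are checked by the non-directional kit only. Counts of the 3 non-directional knockout libraries agree within sampling noise (chi-square per degree of freedom 0.956 to 0.991), while wild-type replicate 2 differed from the other wild-type libraries (1.82 and 2.00). Agreement within sampling noise does not show that the knockout libraries are independent samples. They were kept as 3 samples only because the labels list them so, and the calls below rest on a very small spread that may be technical. Of 14 blood and leukemia markers, 12 were under 1 CPM in both genotypes and 7 had no count in any non-directional library, CD33, SPI1 and MPO among them, so the libraries lacked defining markers of the labelled leukemia. The blood markers summed to 39.4 to 41.8 CPM in wild-type and 35.2 to 38.3 CPM in knockout libraries, almost all of it KIT and RUNX1. All 8 markers of adherent cells reached 1 CPM in at least 1 genotype and summed to 566 to 598 CPM in wild-type and 637 to 647 CPM in knockout libraries. Single adherent markers went both ways, with mean CPM moving from 3.74 to 39.7 for EPCAM and from 51.9 to 89.7 for FN1, but from 133 to 97.5 for CDH2. The part of these shifts in the results below was not tested.

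All 7 genes passed the filter on low counts, and 6 of them passed an edgeR adjusted p of 0.05 in the non-directional libraries, 5 higher and 1 lower in the knockout. Over all 13778 genes tested, 51.5% passed, 25.5% higher and 25.9% lower, so a call by itself sets a gene little apart. FAM208A, PPHLN1, MORC2, MORC3 and MORC4 rose, FAM208B fell, and MPHOSPH8 did not pass. None of the 7 reached 2-fold, nor did most genes, since 7.80% of those tested passed with a change of that size. Their median log2 fold change was 0.27 against -0.0012 for all genes. The median absolute log2 fold change was 0.27 for the 7 genes, 0.19 for all genes tested and 0.35 for all genes that passed. For the 6 genes that passed, the 3 knockout libraries did not overlap the 3 wild-type libraries in CPM, which held for 56.2% of all genes tested (29.1% with the knockout higher and 27.0% with it lower). In bulk RNA, a change in the number of cells that use a gene and a change in RNA per cell cannot be told apart.

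**Figure D1:**
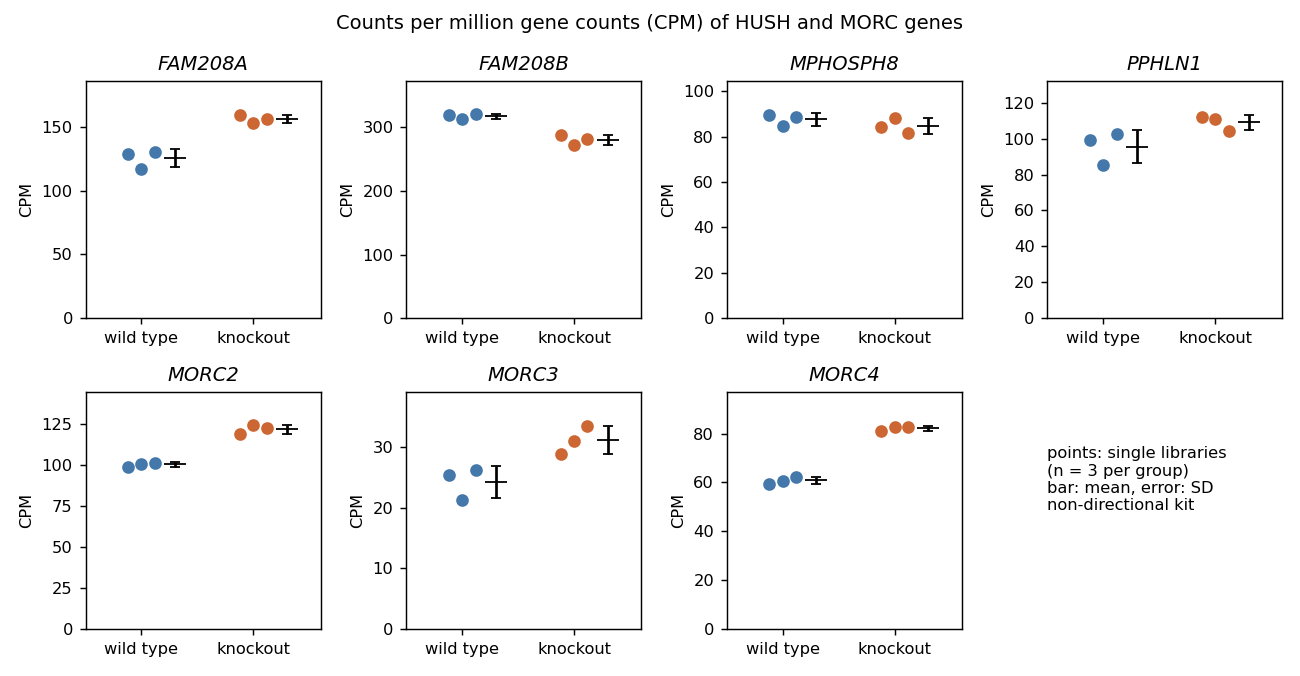
CPM of each gene (vertical axis, starting at 0) in the 3 wild-type (blue) and 3 knockout (orange) non-directional libraries; the black bar is the group mean and its error the SD. Knockout points sit above wild-type points for FAM208A, PPHLN1, MORC2, MORC3 and MORC4, below them for FAM208B, and among them for MPHOSPH8.

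Because the largest rise and the pair of paralogs that moved in opposite directions carry the result, the sequence upstream of these 3 genes is shown. Each line gives 200 bases of RefSeq sequence on GRCh38.p14, 5′ to 3′ on the strand of the gene, ending just before the start. RefSeq and GENCODE place that start at the same base for FAM208A and FAM208B. For MORC4 the stretch ends before the GENCODE start, 107000244, which lies upstream of the RefSeq start, 107000212. Capitals mark matches to 4 motifs, each searched on both strands, none of which contains another. GGGCGG is the motif known as the GC box. CCAAT is the motif that names the CCAAT box. CCGGAA is the core bound by ETS factors. TATAAA is the core of the TATA box. The FAM208A stretch is chr3:56683238-56683437 (minus strand), that of FAM208B chr10:5684638-5684837 (plus strand) and that of MORC4 chrX:107000245-107000444 (minus strand).
FAM208A: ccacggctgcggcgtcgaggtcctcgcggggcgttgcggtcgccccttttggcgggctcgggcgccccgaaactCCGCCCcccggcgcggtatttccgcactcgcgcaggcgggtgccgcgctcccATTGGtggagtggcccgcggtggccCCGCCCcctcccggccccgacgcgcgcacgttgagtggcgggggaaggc
FAM208B: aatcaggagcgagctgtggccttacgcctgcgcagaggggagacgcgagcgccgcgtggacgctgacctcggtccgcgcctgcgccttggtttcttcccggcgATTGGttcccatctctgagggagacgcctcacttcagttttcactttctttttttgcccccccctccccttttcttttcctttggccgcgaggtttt
MORC4: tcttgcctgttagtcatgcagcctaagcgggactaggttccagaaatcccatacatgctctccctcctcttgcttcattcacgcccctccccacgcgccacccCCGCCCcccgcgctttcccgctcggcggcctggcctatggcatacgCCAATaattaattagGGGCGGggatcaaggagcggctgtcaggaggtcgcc
The FAM208A stretch holds 33 CpG dinucleotides and 2 GC boxes, the FAM208B stretch 18 CpG and no GC box, and the MORC4 stretch 14 CpG and 2 GC boxes. The median over 35116 RefSeq promoter windows of this length was 9 CpG. All 7 genes matched a RefSeq promoter entry. CCAAT letters were found upstream of 6 of the 7 and in 28.0% of all windows, GC box letters upstream of 5 and in 40.1%, ETS core letters upstream of 2 (PPHLN1 and MORC3) and in 12.9%, and TATA box letters upstream of none and in 8.59%. The RefSeq start used for PPHLN1, 42326167 on chromosome 12, lies well inside the gene as GENCODE draws it, which starts at 42238447. A match is a run of letters, not a shown binding site.

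FAM208A, the scaffold of HUSH (ENSG00000163946, chromosome 3, 56620133 to 56683237, minus strand, GRCh38), had 129.0, 117 and 131 CPM in wild-type replicates 1, 2 and 3. The knockout replicates had 159, 153 and 156 CPM. The genotypes did not overlap, the knockout being higher. The means were 126 ± 7.4 and 156 ± 3.4 CPM (SD, n = 3 each), a 1.23-fold rise by edgeR (log2 fold change 0.30, SE 0.039, adjusted p = 2.73e-10). Its exons share 287 bases, 2.92% of their length, with CCDC66 on the opposite strand, which held 70 to 108 counts per non-directional library and did not pass (log2 fold change -0.11, edgeR adjusted p = 0.521).

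FAM208B, the paralog of FAM208A (ENSG00000108021, chromosome 10, 5684838 to 5763740, plus strand), went the other way. Wild-type replicates had 319, 312 and 320.1 CPM and knockout replicates 287, 272 and 282. The genotypes did not overlap here either. The mean fell from 317 ± 4.3 to 280.5 ± 7.7 CPM (SD, n = 3 each), to 0.879 of the wild type (log2 fold change -0.19, SE 0.030, edgeR adjusted p = 2.31e-07).

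Since both paralogs are counted in the same library, their ratio does not depend on how libraries are scaled. This ratio was chosen after the values had been seen. FAM208A counts per FAM208B count were 0.404, 0.375 and 0.408 in the wild-type replicates and 0.555, 0.561 and 0.552 in the knockout replicates. The groups were apart by more than 2 times the spread of either: the mean log2 ratio moved from -1.34 ± 0.066 to -0.85 ± 0.012 (SD, n = 3 each), a 1.41-fold change. FAM208A was already known to be higher, and FAM208B lower, in every knockout library, so the ratios had to separate. A two-sided exact permutation test could therefore only give p = 0.1, the smallest that 3 against 3 libraries allow, and it adds no support. FAM208B remained the more abundant transcript by count in every library.

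PPHLN1, the RNA-binding subunit (ENSG00000134283, chromosome 12, 42238447 to 42459715, plus strand), had 99.0, 85.1 and 102 CPM in wild-type and 112, 111 and 104 in knockout replicates. The groups did not overlap, but wild-type replicate 2 stood well below the rest. The means were 95.5 ± 9.2 and 109 ± 4.2 CPM (SD, n = 3 each), a 1.14-fold rise by edgeR (log2 fold change 0.18, SE 0.046, adjusted p = 4.98e-04). Without wild-type replicate 2 the log2 fold change was 0.11 (edgeR adjusted p = 0.0168), so the size of this rise is poorly fixed. In a fit over all 12 libraries it was 0.12, but there all 7 genes came out lower, FAM208A at 0.24 and FAM208B at -0.25 among them. PPHLN1 shares 438 exon bases with PRICKLE1 on the opposite strand, which was lower in the knockout (log2 fold change -0.39, edgeR adjusted p = 0.0133).

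MPHOSPH8, the chromodomain subunit (ENSG00000196199, chromosome 13, 19633681 to 19673459, plus strand), had 89.7, 84.5 and 88.8 CPM in wild-type and 84.2, 88.4 and 81.7 in knockout replicates. The groups overlapped. The means were 87.7 ± 2.8 and 84.8 ± 3.4 CPM (SD, n = 3 each), a log2 difference of -0.06 by edgeR (SE 0.046, adjusted p = 0.299). The 95% interval of the fold was 0.903 to 1.02, while that of FAM208A began at 1.17. No exon of MPHOSPH8 overlaps another annotated gene.

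All 3 MORC genes tested rose. MORC4, a histone-reading ATPase (ENSG00000133131, chromosome X, 106813871 to 107000244, minus strand), changed most of the 7. It had 59.5, 60.7 and 62.3 CPM in wild-type and 81.0, 82.9 and 82.9 in knockout replicates. The libraries of each group were close to one another and the groups far apart. The means were 60.8 ± 1.4 and 82.3 ± 1.1 CPM (SD, n = 3 each), a 1.35-fold rise by edgeR (log2 fold change 0.43, SE 0.049, adjusted p = 3.70e-12). The 50 tested genes nearest to it, 25 on each side, had a median log2 fold change of 0.15, with 31 of the 50 past the threshold. Less this median, the value was 0.27, more than 1.5 times lower. The part of the neighbourhood in the rise was not tested.

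MORC2, the ATPase recruited by HUSH (ENSG00000133422, chromosome 22, 30925130 to 30968298, minus strand), had 98.5, 101 and 101 CPM in wild-type and 119, 124 and 122 in knockout replicates. The groups were well apart. It rose from 100.2 ± 1.5 to 122 ± 2.7 CPM (SD, n = 3 each), or 1.21-fold by edgeR (log2 fold change 0.27, SE 0.041, adjusted p = 2.92e-08). MORC2-AS1, on the opposite strand, overlaps 1616 bases or 25.8% of the MORC2 exons. Reads from the shared bases cannot be told apart in these libraries, where MORC2-AS1 itself was given 0 to 2 counts, so the MORC2 level is uncertain.

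MORC3, the ATPase of PML bodies (ENSG00000159256, chromosome 21, 36320189 to 36386148, plus strand), was the lowest of the 7. It had 25.4, 21.3 and 26.3 CPM in wild-type and 28.9, 31.1 and 33.5 in knockout replicates. The groups did not overlap, though the gap between them was small. It rose from 24.3 ± 2.7 to 31.1 ± 2.3 CPM (SD, n = 3 each), or 1.27-fold by edgeR (log2 fold change 0.35, SE 0.078, adjusted p = 1.09e-04). Its exons overlap 3 genes, of which CHAF1B, on the same strand, was well expressed at 89.8 ± 5.0 and 84.9 ± 3.7 CPM (SD, n = 3 each) and shares 89 bases. MORC1, the MORC gene of germ cells (ENSG00000114487), had 0 counts in all 12 libraries, which allows up to 0.336 CPM in the shallowest non-directional library (3 counts, counting error only).

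**Figure D2:**
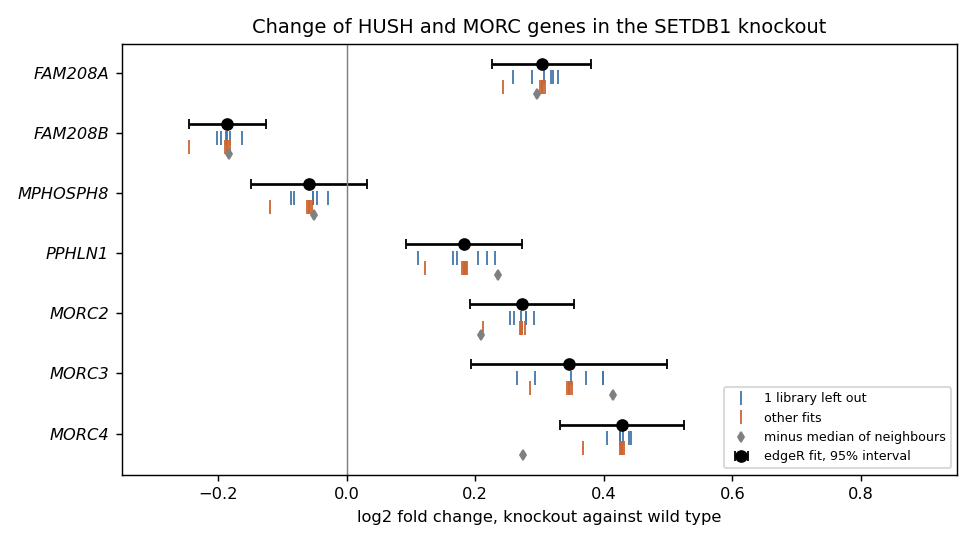
Log2 fold change of each gene in the non-directional libraries (horizontal axis); black points are the edgeR fit with a 95% interval, blue ticks the fits with 1 library left out, orange ticks the other fits and grey diamonds the value less the median of neighbouring genes. Intervals of 6 genes stay clear of 0, that of MPHOSPH8 crosses it, and FAM208B alone lies below 0 among the 6.

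The calls rest on a test against no change at all. Tested against a change of up to 1.2-fold (edgeR glmTreat), MORC4 alone of the 7 passed (adjusted p = 8.13e-04), against 20.9% of all genes (9.52% higher and 11.4% lower). The adjusted p of the others was then 0.189 for MORC3, 0.198 for FAM208A, 0.540 for MORC2 and 1 for FAM208B, PPHLN1 and MPHOSPH8. With the 3 knockout libraries added up into 1 sample, so that the spread came from the wild type, the same 5 rises and 1 fall passed, against 42.0% of all genes (20.9% higher and 21.2% lower). The same 6 genes also passed with the replicate number as a block, where 51.3% of all genes did (25.4% higher and 25.9% lower), and in the fit over all 12 libraries, where 41.6% did (15.2% higher and 26.3% lower).

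Divided by the length of merged exons, as CPM per 1000 bases, the wild-type levels ran in the order FAM208B (28.9 ± 0.39), MPHOSPH8 (17.9 ± 0.56), MORC2 (16.0 ± 0.24), FAM208A (12.8 ± 0.75), MORC4 (10.1 ± 0.23), PPHLN1 (7.86 ± 0.76) and MORC3 (3.80 ± 0.42; SD, n = 3 each). The ranges of neighbours in this order did not overlap. The median over all genes tested was 5.33, so MORC3 alone of the 7 stood below it. In the knockout MORC2 (19.4 ± 0.43) passed MPHOSPH8 (17.3 ± 0.69) and the order was otherwise unchanged. FAM208A and FAM208B drew closer, at 15.9 ± 0.35 and 25.6 ± 0.70 (SD, n = 3 each). The length used for MORC2 includes the 25.8% of its exon bases shared with MORC2-AS1, whose reads may be missing from its counts. The MORC2 level may therefore be too low, and its order beside MPHOSPH8 is uncertain in both genotypes. With the longest annotated transcript as the length, 5 of the 7 kept their rank in the wild type, and PPHLN1 overlapped both FAM208A and MORC4. In the knockout 4 of the 7 kept their rank, with MPHOSPH8 moving from rank 3 to rank 5, and FAM208A and MORC4 overlapped. The order of the middle genes therefore depends on the length used.

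**Figure D3:**
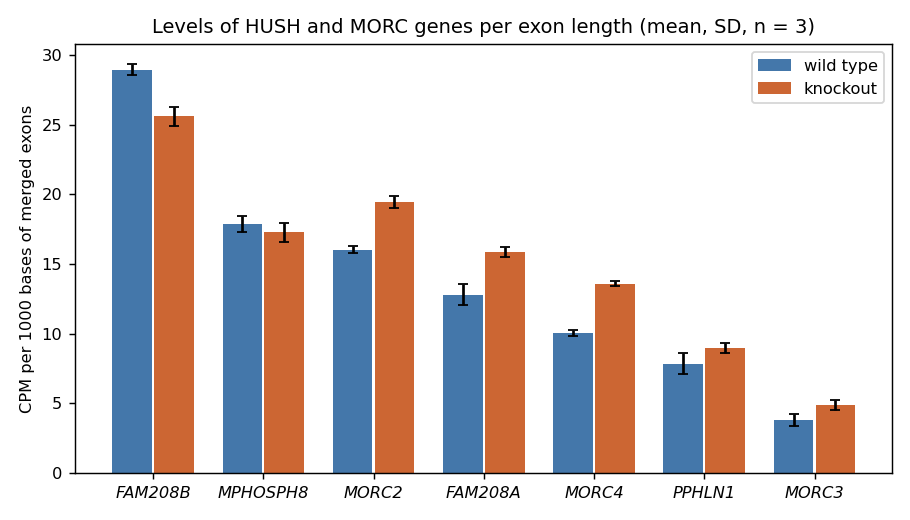
Level of each gene as CPM per 1000 bases of merged exons (vertical axis, starting at 0) in wild type (blue) and knockout (orange); bars are means and error bars the SD of 3 non-directional libraries. FAM208B is highest in both genotypes (28.9 and 25.6) and MORC3 lowest (3.80 and 4.86).

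The directional libraries gave the 7 genes few counts, 0.123% (MORC3) to 1.79% (MPHOSPH8) of their non-directional counts, against 6.13% over all genes. Single values ran from 0 to 31 counts, and in every one of the 7 genes the groups overlapped. The 3 that passed the filter, FAM208A, FAM208B and MPHOSPH8, did not pass the test (edgeR adjusted p = 0.964, 0.273 and 0.829, unadjusted p = 0.916, 0.0931 and 0.660), where 16.2% of 4745 genes did (7.67% higher and 8.49% lower). DESeq2 also called 0 of the 3. The kits had similar numbers of listed reads per library, 10106592 to 12842195 (directional) and 11096966 to 12684855 (non-directional). In the directional libraries 94.6% of them fell in no gene. With so few gene counts, a change of the size seen in the other kit was not detectable.

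Of the 8 genes whose exons overlap those of the 7, 3 of the 4 annotated as antisense RNAs had far more counts with the directional kit. The remaining antisense RNA, AP000692.2 at MORC3, also had more, 3 to 16 directional against 0 to 3 non-directional counts per library. The protein-coding CCDC66, PRICKLE1 and CHAF1B had fewer raw counts with the directional kit, whose gene totals are far smaller. As CPM, PRICKLE1 and CHAF1B were lower there too, but CCDC66, opposite FAM208A, was higher. CCDC66 had 34.5 ± 8.6 (wild type) and 37.1 ± 10.4 CPM (knockout) in the directional libraries. The non-directional values were 9.16 ± 1.4 and 8.61 ± 0.45 (SD, n = 3 each). AL365356.1, an antisense gene that shares 435 bases with the exons of FAM208B, had 0 to 2 counts in the non-directional libraries but 82, 99 and 82 in the directional wild-type and 60, 72 and 60 in the directional knockout replicates. It fell from 145 ± 10.3 to 110.4 ± 15.1 CPM (SD, n = 3 each), a log2 difference of -0.40 by edgeR (SE 0.14, adjusted p = 0.0382), the direction FAM208B took in the other kit. MORC2-AS1 had 0 to 2 counts with the non-directional kit and 103, 116 and 91 in the directional wild-type and 142, 106 and 115 in the directional knockout replicates. Its 170 ± 2.0 and 207 ± 20.7 CPM (SD, n = 3 each) did not overlap, but the difference did not pass (log2 fold change 0.28, SE 0.12, edgeR adjusted p = 0.0793). AC079601.1 shares 350 bases with PPHLN1 on the same strand and lies within PRICKLE1, which is on the other. It had no count with the non-directional kit and 99, 110 and 78 in the directional wild-type and 70, 63 and 65 in the directional knockout replicates. It fell from 157 ± 8.9 to 113 ± 4.5 CPM (SD, n = 3 each), a log2 difference of -0.48 by edgeR (SE 0.13, adjusted p = 0.00648). In the other kit PPHLN1 rose, while PRICKLE1 fell (log2 fold change -0.39, edgeR adjusted p = 0.0133). The strand that was counted is not given in the sources used here, so directional counts cannot be read as sense transcription of the gene they are listed under. Nor can they be read as a change of antisense RNA. Whether reads of FAM208B, MORC2 and PRICKLE1 were counted under AL365356.1, MORC2-AS1 and AC079601.1 was not tested.

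**Figure D4:**
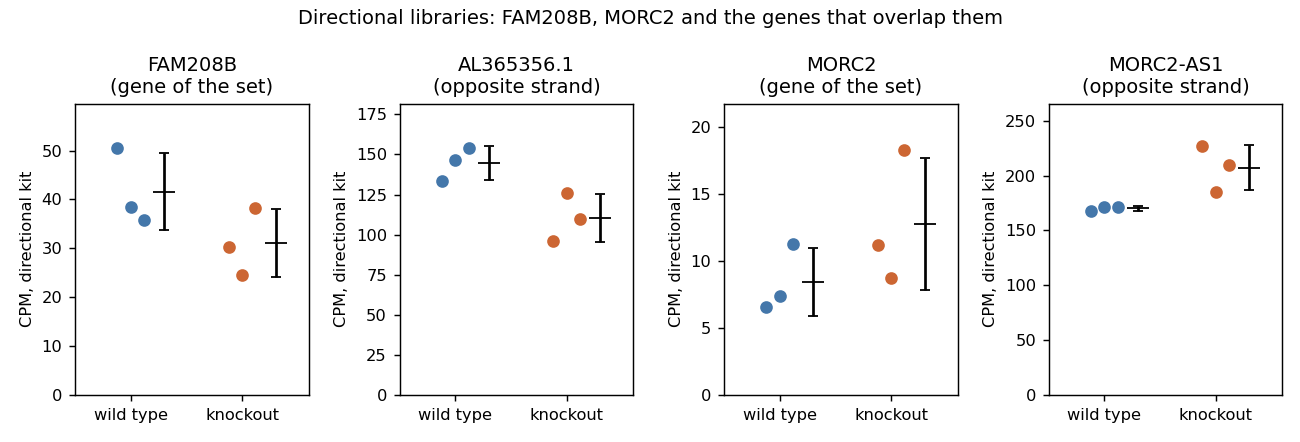
CPM in the directional libraries (vertical axes, starting at 0) of FAM208B and MORC2 and of the opposite-strand genes AL365356.1 and MORC2-AS1, for 3 wild-type (blue) and 3 knockout (orange) libraries; the black bar is the mean and its error the SD. AL365356.1 lies lower in all knockout libraries (means 145 and 110.4) and MORC2-AS1 higher (170 and 207), while FAM208B and MORC2 overlap between groups.

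L1 elements are main targets of HUSH, and the deposited tables hold a signal for 6437 L1 loci. A single one lies inside any of the 7 genes, an L1PA7 copy in an intron of MORC4 (chromosome X, 106966325 to 106972471), which shares no base with its exons. It had 21, 21 and 10 reads in wild-type and 22, 26 and 46 in knockout replicates, recovered from the deposited signal. One knockout library was far higher than the others, and the groups overlapped once divided by library size. Per 1000000 gene counts this was 1.83 ± 0.68 and 3.14 ± 1.2 (SD, n = 3 each), and the difference did not pass (log2 fold change 0.78, edgeR adjusted p = 0.0605), where 34.4% of 816 L1 loci tested did (30.0% higher and 4.41% lower). Reads of this copy cannot be told from reads of the MORC4 transcript.

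The genes that work with HUSH and MORC proteins went both ways. Each count below is to be read against the 51.5% of all genes tested that passed, 25.5% higher and 25.9% lower. Of the 7 genes of SETDB1, its partners and the HP1 readers of methylated H3K9, 2 were higher and 4 lower (median log2 fold change -0.09). The 4 lower genes include SETDB1 itself, whose fall follows from the knockout. ATF7IP, which stabilizes SETDB1 and carries it into the nucleus, rose from 57.2 ± 0.80 to 177 ± 5.1 CPM (SD, n = 3 each), a log2 rise of 1.62 by edgeR (SE 0.044, adjusted p = 3.69e-49), a far larger change than that of any HUSH or MORC gene. TRIM28, the corepressor that brings SETDB1 to KRAB zinc finger proteins, had a log2 fold change of -0.11 and passed. The HP1 proteins went both ways, CBX5 (-0.25) and CBX3 (-0.09) lower and CBX1 (0.13) higher, and all of them passed.

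Of the other 6 H3K9 methyltransferases of the list, SETDB2 and PRDM2 were higher and SUV39H1 lower (log2 fold change -0.74, edgeR adjusted p = 4.59e-19). The 50 nearest neighbours of SUV39H1 had a median log2 fold change of -0.26. Among 4 genes linked to HUSH recruitment, IRF2BP2 (log2 fold change -0.76) and IRF2BP1 (-0.18) were lower, and ZNF638, which brings HUSH to unintegrated viral DNA, had -0.02 and did not pass. IRF2BP2 lies among genes on chromosome 1 whose median was -0.47, with 44 of its 50 nearest neighbours lower, and the part of this neighbourhood was not tested.

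Of 17 genes of the nuclear exosome and its targeting complex NEXT, which degrade unstable nuclear RNA, 3 were lower, none was higher and 14 did not pass (median -0.02), fewer calls than the 51.5% over all genes. EXOSC6 changed most of the 3, with a log2 fold change of -0.40. PML bodies, the site of MORC3, and the SUMO machinery gave 5 higher and 3 lower of 14 tested (median -0.07), a share near that of all genes. SP110 fell from 2.97 ± 0.37 to 0.808 ± 0.21 CPM (SD, n = 3 each), a log2 difference of -1.88 by edgeR (SE 0.30, adjusted p = 1.14e-07). Of the SUMO ligases, PIAS2 was lower (-0.24) and PIAS4 higher (0.19). Histone H3.3 genes and their chaperones gave 3 higher and 4 lower of 8 (median -0.07), led by UBN2 at 0.56 and H3F3A at -0.38, the latter with a neighbourhood median of -0.41. LRIF1, the partner of the MORC-like ATPase SMCHD1, rose by 0.49 on the log2 scale, while SMCHD1 did not pass (-0.0054).

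**Figure D5:**
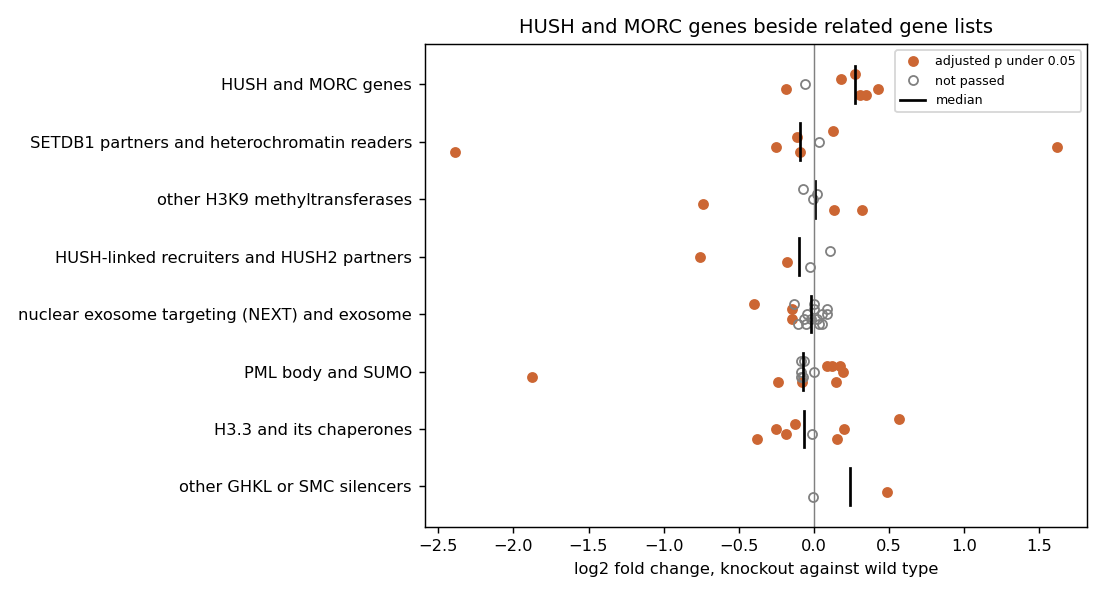
Log2 fold change (horizontal axis) of each tested gene of the HUSH and MORC set and of 7 related lists; filled points passed an adjusted p of 0.05, open points did not, and the black line is the list's median. The HUSH and MORC median lies at 0.27, the other medians between -0.10 and 0.24, and SETDB1, ATF7IP and SP110 are the points farthest from 0.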

How the data were processed

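The authors deposited raw counts per gene for 12 libraries, and for the 6 non-directional libraries a signal per L1 locus, which is whole reads divided by 1 factor per library. All non-zero L1 values came out whole within 0.01 of a read, and the reads were recovered. The submitters' processing notes name hg38, Trim Galore 0.4.4, STAR 2.6.0a, SAMtools 1.9, Picard 2.23.8 and HTSeq 0.11.1. All 58735 gene IDs matched GENCODE 29 (GRCh38). Groups and replicate numbers came from the titles.

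Genes were filtered with filterByExpr (minimum count 10, minimum total 15), scaled by TMM and tested within each kit with the quasi-likelihood test of edgeR 4.0.16 (R 4.3.3), adjusted by Benjamini-Hochberg over all genes tested, threshold 0.05. L1 reads were tested likewise with the gene-table library sizes, a test chosen after the values were seen, which called 281 of 816 loci. SE was taken as |log2 fold change| over the root of the F statistic, and 95% intervals are normal intervals from it. CPM uses gene counts as total, and 3 counts equal 0.294 to 0.336 CPM (non-directional) or 4.43 to 5.64 (directional), counting error only. Reads that fell in no gene, left out of all totals, made up 94.6% of each directional and 4.00% to 4.40% of each non-directional library. Also left out were reads ambiguous between genes, 8.37% to 8.41% of each non-directional library, and reads without a unique alignment, 6.86% to 7.19%. DESeq2 1.42.0 was an alternative. The fit was also run on counts simulated from its own dispersions with few genes changed. That run does not show how the fit behaves where 51.5% of genes pass. The 7 genes and the related lists were chosen with earlier results of these data known. Named were the 7 genes, SETDB1, MORC1, genes overlapping their exons, up to 3 called genes of each list with the largest absolute change (any gene of lists of 7 or fewer), and the 2 genes with at least 10 CPM most correlated with each called gene.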

Additional observations from a re-analysis of the deposited data

How the results depend on the processing

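The 7 log2 fold changes kept their sign under all 14 alternatives each. The 6 calls were kept under RLE scaling, the DESeq2 Wald test, no filter, the fit over all 12 libraries and each of the 6 fits with 1 library left out. Calls over all genes were also largely kept. In place of 7089, 7090 genes passed under RLE scaling, 5359 under DESeq2, 7112 with no filter and 6583 in the fit over all 12 libraries. The fits with 1 library left out passed 6394 to 7135 genes. With 1 library left out the log2 fold change ranged from 0.26 to 0.33 for FAM208A, -0.20 to -0.16 for FAM208B, -0.09 to -0.03 for MPHOSPH8, 0.11 to 0.23 for PPHLN1, 0.25 to 0.29 for MORC2, 0.27 to 0.40 for MORC3 and 0.41 to 0.44 for MORC4. FAM208A, PPHLN1 and MORC3 were each lowest without wild-type replicate 2. Tested against a 1.2-fold change, 1 of the 7 genes and 2883 of all genes passed in place of 6 and 7089, and calls were lost for FAM208A (log2 fold change 0.30), FAM208B (-0.19), PPHLN1 (0.18), MORC2 (0.27) and MORC3 (0.35), because the test asks for more than a small change. Less the median of neighbouring genes, MORC2 moved to 0.21 and MORC4 to 0.27. With the longest transcript as length, 5 of the 7 genes kept their rank among wild-type and 4 among knockout levels.

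Deviations of libraries with the same replicate number were unrelated (mean r -0.0102 and -0.00176 in the non-directional and directional kits, 0 and 1 of 3 libraries correlating best with their own number). With the replicate number as a block, 6 of the 7 genes and 7074 of all genes passed, 7031 of which also passed without it, and no call of the 7 genes changed. The fit over all 12 libraries moved the balance of all calls to 2413 higher and 4170 lower, and the cause was not tested.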

Other observations

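Of the L1 elements within 50000 bases of the 7 genes but outside them, 3 are in the tables. An L1PA5 copy 15791 bases from MPHOSPH8 (chromosome 13, 19611547 to 19617890) had 109, 66 and 68 recovered reads in wild-type and 98, 108 and 70 in knockout replicates, and the groups overlapped (log2 fold change 0.12, edgeR adjusted p = 0.662). An L1PA5 copy 37605 bases from FAM208A had 0 to 12 reads per library and an L1PA6 copy 42001 bases from MORC4 had 0 to 2, too few to be tested.

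The genes whose log2 CPM followed each called gene most closely over the 6 non-directional libraries were ANKIB1 and HACL1 for FAM208A (Pearson r = 0.9990 and 0.9981), ATF3 and CNIH4 for FAM208B (0.9998 and 0.9994), TSPYL1 and ARMCX6 for PPHLN1 (0.9974 and 0.9944), HERC1 and PEAK1 for MORC2 (0.9996 and 0.9989), CDC23 and MICU2 for MORC3 (0.9991 and 0.9919), and POFUT2 and DCAF13 for MORC4 (0.9992 and 0.9992). These values describe 6 points that fall into 2 genotypes, and an r above 0.95 was reached by 110 (PPHLN1) to 1086 (MORC4) of 9701 genes compared.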
